A study of Homo sapiens with 36 samples.

Results

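Divergent transcripts, whose symbols end in -DT, are long non-coding RNAs that start beside the promoter of a coding gene and run away from it. The symbol names the neighbour: STAG1-DT lies back to back with STAG1, a cohesin subunit gene. The members described here were chosen by their level in these data: of 578 Ensembl genes with such a symbol among 59607 features, the 300 with the highest raw counts summed over the 12 libraries of cytoplasmic total RNA were kept. The cells were HCT116, an established line from a human colon carcinoma, engineered so that auxin marks a tagged DIS3 protein for degradation. The control line expressed TIR1, the plant auxin receptor, and its label names no tag on DIS3. The DIS3-AID line expressed TIR1 constitutively and carried the auxin-inducible degron (AID) on DIS3 through CRISPR; per the series' design text it is a clone, so its difference from the control line cannot be told apart from clonal differences. Both lines were left untreated or given 500 µM auxin for 1 h, which makes 4 groups of 3 libraries in each of 3 data sets: total RNA depleted of ribosomal RNA of the cytoplasm, the same of the chromatin fraction and polyA-enriched RNA of the cytoplasm. The triplicates of the cytoplasm are called technical, and nothing gives separate cultures for the chromatin, so a p-value here reflects library-to-library spread alone, which may be technical.

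Human promoters often fire in both directions, and the RNA made against the coding direction is usually short-lived. Nuclear adaptor complexes (NEXT and the PAXT connection) hand such RNA to the RNA exosome, a barrel of core subunits that owes its catalytic activity to DIS3 and EXOSC10. Early polyadenylation signals and few splice sites are the features that such transcripts are known for.

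Member and partner promoters are largely the same DNA. A RefSeq window (GRCh38.p14) of 300 bases, from 250 before to 50 after the annotated start, was found for 230 of the 300 members and for 251 of their partner genes. Of 216 pairs with both windows, 180 shared bases, with a median over the 216 pairs of 194 shared bases, so similar values in members and partners are nearly fixed beforehand. Of the members' windows, 93.9% had an observed over expected CpG ratio above 0.6 and a GC share above 50%, as had 93.2% of the partners' windows and 46.8% of the 27305 windows of all genes in the table. The median GC share was 68.7% in members, 67.7% in partners and 58.3% in all windows. TATAAA, the core of a TATA box, was read on both strands and stood in 4.35% of members' windows, 5.18% of partners' and 12% of all. The letters GTAAGT, as in a strong donor splice site, stood on either strand in 0.870% of members' windows, 1.99% of partners' and 6.19% of all. AATAAA, the polyadenylation signal, stood in 5.65%, 7.17% and 17.8%. These letters are a description of this window only. The windows of 4 members on which results turn are printed for their differing behaviour: STAG1-DT and IDH3B-DT had the largest rises in the polyA libraries, INSIG1-DT had one of the largest rises on chromatin, and CHD1-DT fell on chromatin while its cytoplasmic level went up. Each runs in the member's own direction, and capitals mark the 50 bases from the RefSeq start on.
STAG1-DT: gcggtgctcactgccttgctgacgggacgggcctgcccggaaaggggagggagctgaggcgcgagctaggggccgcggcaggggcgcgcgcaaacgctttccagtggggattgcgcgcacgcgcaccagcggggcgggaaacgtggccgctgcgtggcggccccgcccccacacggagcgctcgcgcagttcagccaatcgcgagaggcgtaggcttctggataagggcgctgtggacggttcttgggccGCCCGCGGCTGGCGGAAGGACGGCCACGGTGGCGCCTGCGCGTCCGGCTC
IDH3B-DT: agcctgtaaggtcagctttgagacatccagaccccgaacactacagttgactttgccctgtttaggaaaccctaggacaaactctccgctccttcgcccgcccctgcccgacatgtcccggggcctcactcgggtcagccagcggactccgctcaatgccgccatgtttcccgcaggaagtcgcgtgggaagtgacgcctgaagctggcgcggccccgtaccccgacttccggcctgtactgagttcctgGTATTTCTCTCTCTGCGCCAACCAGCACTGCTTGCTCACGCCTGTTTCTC
INSIG1-DT: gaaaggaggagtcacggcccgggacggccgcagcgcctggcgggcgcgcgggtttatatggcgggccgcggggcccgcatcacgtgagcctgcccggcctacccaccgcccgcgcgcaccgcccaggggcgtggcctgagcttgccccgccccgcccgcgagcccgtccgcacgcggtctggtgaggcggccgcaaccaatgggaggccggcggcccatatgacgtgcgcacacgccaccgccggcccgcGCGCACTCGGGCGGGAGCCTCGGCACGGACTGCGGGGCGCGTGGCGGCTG
CHD1-DT: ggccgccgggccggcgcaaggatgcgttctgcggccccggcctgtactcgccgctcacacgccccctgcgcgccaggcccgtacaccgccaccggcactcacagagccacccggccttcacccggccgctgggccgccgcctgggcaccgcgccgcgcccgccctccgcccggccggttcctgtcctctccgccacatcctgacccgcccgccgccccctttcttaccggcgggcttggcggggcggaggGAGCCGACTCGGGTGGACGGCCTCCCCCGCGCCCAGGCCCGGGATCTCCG
The windows lie at chr3:136752421-136752720 (plus strand), chr20:2664024-2664323 (plus strand), chr7:155297609-155297908 (minus strand) and chr5:98928312-98928611 (plus strand). In the INSIG1-DT window TATAAA occurs on the other strand, the one from which INSIG1 is read, and not on the member's own strand, and the RefSeq start of INSIG1 lies 220 bases away. None of the other 3 printed windows holds it. CHD1-DT is the odd case: its RefSeq start lies inside CHD1 (a gap of -445 bases), whereas its start in GENCODE 29 lies 214 bases outside.

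In the annotation (GENCODE 29, hg38) all 300 members lay on the strand opposite to their partner, and the 300 partners were distinct protein-coding genes. The gap between the 2 annotated starts had a median of 105.5 bases (quartiles 0.75 and 214). It was between 0 and 1000 bases in 217 pairs, and in 74 pairs the member started inside the partner. In 9 pairs it was over 1000 bases, among them ERICH2-DT with 13018. Single-exon models made up 59 members and models with 2 or more exons 241, and the exon length had a median of 1620.5 bases (range 207 to 22965). A polyadenylation signal, AATAAA or ATTAAA, was searched on the transcript's strand in the last 50 bases of each annotated model and stood in 64.7% of members, 93.3% of partner genes, 51.9% of all long non-coding genes and 84.5% of all coding genes. Exons of 10 members overlapped another gene on the same strand and those of 110 overlapped one on the opposite strand. The library kits keep strand but the strand setting of the counting is not given, so reads of overlapping members may be shared.

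The polyA libraries held between 25859633 and 33068609 counts, those of cytoplasmic total RNA between 59450421 and 122574347, and those of chromatin between 50278746 and 139011514. Levels are given as CPM, counts relative to the TMM-scaled library total in the usual unit. Of 9 colon epithelial markers 7 exceeded 1 CPM in the cytoplasm, and VIL1 and CDH17 were near 0. Of 9 markers of other cell types only VIM and COL1A1 did. DIS3 mRNA, which does not report the depletion of its protein, stood at 90.5 ± 2.58 CPM in untreated control cytoplasm and at 50.1 ± 2.63 in the DIS3-AID line (SD, n = 3). It did not pass the test for auxin in that line (45.8 ± 0.937 CPM, log2 change -0.13, adjusted p = 0.0637 in edgeR). Of 45 decay and termination factors, 2 rose and 9 fell in DIS3-AID cytoplasm after auxin, all by under 2-fold. Of protein-coding genes 7.25% rose and 20% fell there. ZFC3H1, the PAXT scaffold, was higher by 0.21 on the log2 scale and SNRNP70, a U1 snRNP protein, lower by 0.23 (log2 change -0.23). On chromatin 3 rose and 2 fell, beside 6.41% and 13.4% of protein-coding genes. In the polyA set 2 of 39 tested rose, ZFC3H1 by 0.59 and PCF11 by 0.27 on the log2 scale, and 1 fell. Of protein-coding genes 1.67% rose and 6.1% fell in that set. With library sizes alone in place of TMM scaling, the split of all features into higher and lower after auxin in DIS3-AID cells moved from 4854 and 3040 to 5581 and 681 in the cytoplasm, from 2741 and 2382 to 2139 and 3351 on chromatin and from 2190 and 646 to 2351 and 331 in the polyA set. The members' own splits moved by less than 10 percentage points in each of the 15 comparisons, wherever a split could be formed.

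Before any treatment the members were scarce. The median member had 0.555 RPKM (CPM per kilobase of exon) in untreated control cytoplasm, against 9.30 for the partner genes, and 19 of 300 members stood above their own partner. On chromatin the medians were 1.13 and 9.51 RPKM, with 54 members above their partner. Levels of both genes of a pair were nearly unrelated (Pearson's r across 300 pairs 0.12 in either fraction, a description, since all points share the same libraries). Among the highest members per kilobase in control cytoplasm were ZDHHC12-DT with 13.9, SPOPL-DT with 8.03, PCCA-DT with 8.02, TARS1-DT with 7.34 and GATD1-DT with 7.17 RPKM. VPS13B-DT (6.77), EMSY-DT (6.4), SLC12A2-DT (5.62) and TNFRSF10A-DT (5.41) were also among the highest in RPKM. In raw counts SLC12A2-DT led with 42839. At the threshold, AFTPH-DT (441 counts), PPP1R13B-DT (440) and GPR176-DT (437) were inside, and OTULIN-DT (437, a tie broken by gene ID), PORCN-DT (436) and PDXP-DT (434) were outside.

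These transcripts differed widely in where they resided. Relative to each fraction's own total, 162 of 300 members were higher on chromatin and 110 higher in the cytoplasm of untreated control cells (edgeR, threshold of 0.05 on the adjusted p, used throughout), beside 46.2% and 44% of all features tested. Library sizes alone move the median of all features in this comparison by 0.66 on the log2 scale and give 186 and 82 members. With TMM scaling the members' median log2 ratio of chromatin over cytoplasm was 0.47 (quartiles -1.29 and 2.01). All features had a median of 0.10 (quartiles -1.77 and 1.99), so the members were spread no more widely than these. The 59 single-exon members had a median of -1.49 with 45 of 59 higher in the cytoplasm, whereas the 241 spliced ones had 0.91 with 152 higher on chromatin. INSIG1-DT (log2 ratio -3.50) and MAN1B1-DT (-3.29) lay far on the cytoplasmic side, and LGALSL-DT (4.42) and ERRFI1-DT (2.77) on the chromatin side. The cytoplasm libraries had served to choose the members, so these values are a description.

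In the cytoplasm of DIS3-AID cells most members were higher after 1 h of auxin. Together the members took 0.0604% ± 0.000841 of all counts before auxin and 0.133% ± 0.00298 after it (SD, n = 3), a ratio of 2.21. In control cells the share was 0.0571% ± 0.00041 before and 0.0585% ± 0.000763 after auxin. Of the 300 members 255 passed the threshold as higher and 0 as lower in edgeR, where 21.1% and 13.2% of all features tested did; 5 had an unadjusted p under 0.05 as lower, and DESeq2 and the replicate block called 1 lower each. The median log2 change was 1.28 (quartiles 0.57 and 2.18), beside -0.05 for all features, and 181 members were at least 2-fold, 87 at least 4-fold and 24 at least 8-fold higher. These libraries chose the members, so the counts are given for description and nothing is read from them. Leaving the treated groups out of the ranking, by ranking on the 3 untreated control libraries alone, kept 278 of the 300.

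**Figure D1:**
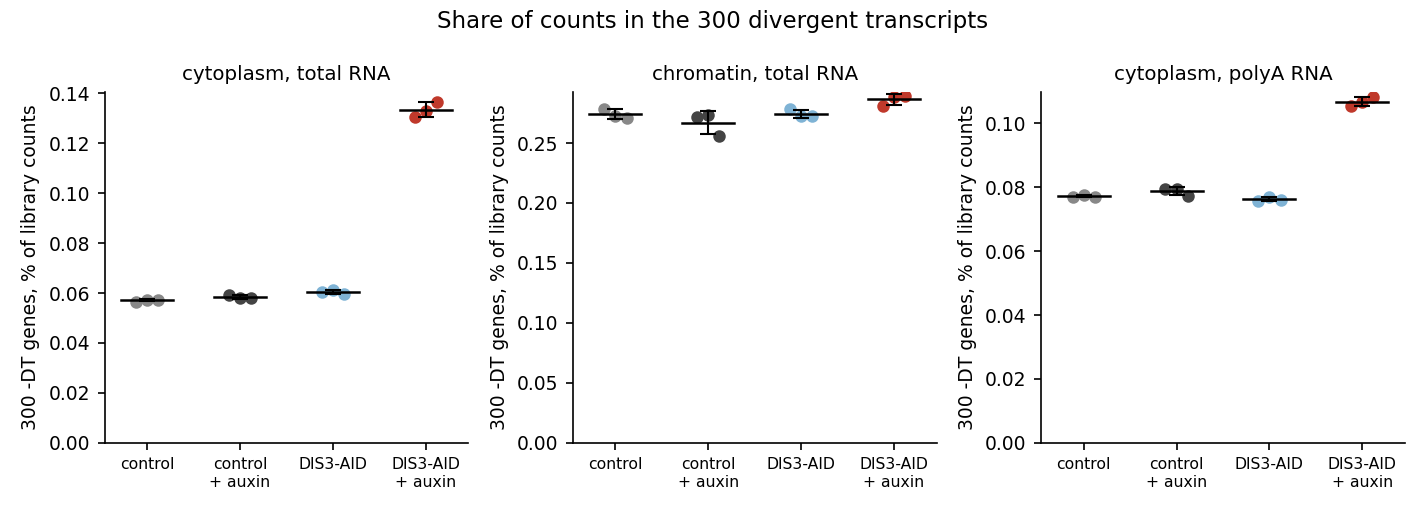
Share of each library's counts held by the 300 divergent transcripts, in percent, for the 4 groups of each data set. Points are libraries, lines are means and bars are SD (n = 3). The auxin-treated DIS3-AID libraries stand apart in both cytoplasmic data sets, and on chromatin they lie at 0.281% to 0.289%, above the 0.256% to 0.279% of the other 9 libraries.

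The largest cytoplasmic change was that of ZNF692-DT. It had 0.193, 0.206 and 0.229 CPM in the 3 untreated and 2.67, 3.34 and 3.04 CPM in the 3 auxin-treated DIS3-AID libraries, a log2 change of 3.84 ± 0.17 (SE). Its control libraries lay between 0.109 and 0.192 CPM with or without auxin. UAP1-DT (3.76), ITPRID2-DT (3.63), PRDM10-DT (3.61), MICOS10-DT (3.58), TTC32-DT (3.48), STAG1-DT (3.47), SND1-DT (3.43), SUGT1-DT (3.41) and KIF18B-DT (3.4) followed on the log2 scale. MICOS10-DT is an unusual pair, since its annotated start lies far inside the partner (a gap of -112429 bases). At the other end of the list LMX1B-DT (-0.38), FAM151B-DT (-0.29), BAIAP2-DT (-0.28), ZNF132-DT (-0.26) and KDM7A-DT (-0.20) were the lowest log2 changes. BAIAP2-DT had 14.2, 13.1 and 16.9 CPM before and 11.3, 11.9 and 13.1 CPM after auxin, so these ranges met at 13.1.

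In the cytoplasm no member passed with auxin in the control line. In control cells 0 of 300 members passed in edgeR, where 0.0478% of all features did; 26 had an unadjusted p under 0.05, and DESeq2, the block on replicate number and the fit without a filter called 1 each. The auxin change was higher in DIS3-AID than in control cells for 224 members and lower for 0 in edgeR, beside 16.1% and 3.31% of features; 2 were lower at an unadjusted p under 0.05, and DESeq2 called 221 and 0. Between the untreated lines 36 members were higher and 10 lower in DIS3-AID cytoplasm, beside 9.67% and 12.4%.

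**Figure D2:**
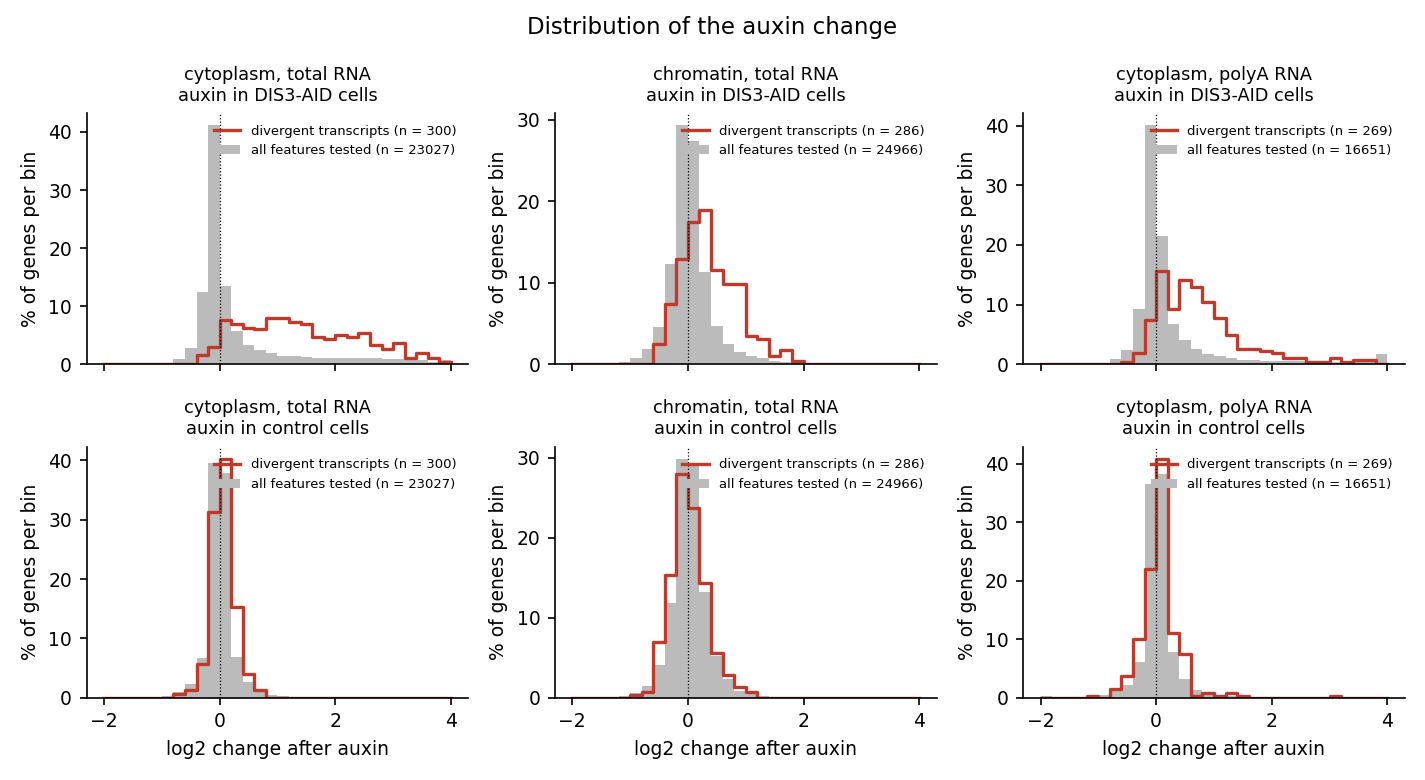
Distribution of the log2 change after auxin in DIS3-AID cells (top) and control cells (bottom), as percent of genes per bin of 0.2, for the divergent transcripts (red line) and all features tested (grey bars), with values past the axis counted in the outer bins. In DIS3-AID cells the red line is shifted to the right most in cytoplasmic total RNA (median 1.28), less in polyA RNA (0.62) and least on chromatin (0.30).

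Markers of nuclear RNA and of the cytoplasm were looked at beside this result. Of 10 tested RNAs from a list drawn up as nuclear 5 rose in DIS3-AID cytoplasm, where 21.1% of all features did. Among the 5, LINC-PINT went from 23.4 ± 3.23 to 73.8 ± 2.67 CPM and NEAT1 from 32.4 ± 1.35 to 53.0 ± 3.45 CPM (SD, n = 3). MALAT1 stood at 888 ± 59.2 CPM before and 839 ± 60.1 CPM after auxin and did not pass (adjusted p = 0.28 in edgeR). The summed level of the list ran from 16800 to 19226 CPM in untreated and from 16357 to 17534 CPM in treated DIS3-AID libraries, most of it RN7SK, and MEG3 was near 0. RN7SK, OIP5-AS1 and TUG1 had higher CPM in control cytoplasm (16184, 168 and 70.1) than on control chromatin (249, 50.3 and 35.7), each relative to its fraction's own total. They therefore do not mark the chromatin fraction here. The data sets hold no library of the nucleoplasm, so whether RNA from it is present in the cytoplasm libraries was not tested. Of 9 abundant cytoplasmic mRNAs 5 fell, where 20% of protein-coding genes did. The summed level of the 9 was 19872 to 20078 CPM before and 17910 to 18736 CPM after auxin. The part of these shifts in the members' change was not tested. In bulk RNA a change in the number of cells that hold an RNA and in its level per cell cannot be told apart.

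On chromatin, in libraries that had no part in the choice, the change was smaller and most calls were rises. Of 286 members tested after the filter on low counts, 116 (40.6%) rose and 18 (6.29%) fell in DIS3-AID cells after auxin. Of all features 11% rose and 9.54% fell, so falls were no more frequent among the members. The median log2 change was 0.30 (quartiles 0.03 and 0.69), against 0.00 for all features, and 28 of the 116 rises were 2-fold or more. Without the filter all 300 could be tested, with 118 rises and 20 falls. Their summed share of counts was 0.274% ± 0.00329 before and 0.286% ± 0.0045 after auxin (exact permutation test, two-sided, p = 0.1, the smallest that 3 against 3 libraries allow), with all 3 treated libraries above the other 9. With 6 comparisons of the share, none could pass after adjustment.

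The 10 members with the largest rises on chromatin were scarce there, with group means of 0.5 CPM or less before auxin. GPR155-DT had 0.089, 0.0827 and 0.0988 CPM before and 0.358, 0.265 and 0.382 CPM after auxin, a log2 change of 1.89 ± 0.32 (SE, adjusted p = 0.000325 in edgeR), on at most 26 reads a library. The treated libraries lay above all others, but its change did not pass the test against that in control cells (difference 1.09, adjusted p = 0.145). INSIG1-DT, beside the gene of a sterol-regulated protein of the endoplasmic reticulum, had 0.367, 0.207 and 0.296 CPM before and 0.895, 1.08 and 0.937 CPM after (log2 change 1.71 ± 0.25, adjusted p = 7.04e-05 in edgeR). CEP192-DT, next to a centrosome gene, went from 0.245, 0.234 and 0.296 to 0.812, 0.813 and 0.798 CPM (1.65 ± 0.21, adjusted p = 1.81e-05 in edgeR). MAN1B1-DT, next to an endoplasmic reticulum mannosidase gene, went from 0.423, 0.551 and 0.527 to 1.29, 1.55 and 1.25 CPM (1.45 ± 0.17, adjusted p = 9.94e-06 in edgeR). In each of these 3 the treated DIS3-AID libraries lay above the other 9. BTF3-DT (1.74), PRDM10-DT (1.69), CZIB-DT (1.65), IDH3B-DT (1.53), SLC25A28-DT (1.44) and H2AZ2-DT (1.37) made up the rest of the largest rises on the log2 scale.

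The falls were shallower, and the 18 members that fell had means of 3.29 CPM or more before auxin and a higher level on chromatin than in the cytoplasm. ERICH2-DT had 4.71, 4.56 and 4.21 CPM before and 3.04, 3.4 and 3.07 CPM after auxin, a log2 change of -0.51 ± 0.09 (SE, adjusted p = 0.000393 in edgeR), and its control libraries lay between 4.18 and 4.68 CPM. AHI1-DT, beside a ciliary gene, went from 16.4, 14.5 and 15.3 to 10.7, 10.8 and 12.5 CPM (log2 change -0.45 ± 0.09, adjusted p = 0.00151 in edgeR), while in control cells it had 14.2, 12.4 and 12.9 without and 17.3, 19.3 and 15.1 with auxin. AHI1-DT thus rose in control cells (0.39, adjusted p = 0.00485 in edgeR), and the difference passed the test (-0.84, adjusted p = 0.000205 in edgeR). CHD1-DT, beside a chromatin remodeller gene, behaved otherwise. It went from 11.6, 10.4 and 11.3 to 7.46, 8.49 and 7.77 CPM (-0.49 ± 0.07, adjusted p = 7.23e-05 in edgeR) in DIS3-AID cells, and in control cells from 14.2, 14.3 and 14.8 to 9.68, 9.56 and 9.44 CPM. The auxin effects of the 2 lines did not differ past the threshold (0.10, adjusted p = 0.521 in edgeR). LGALSL-DT and NSMCE1-DT (both -0.36) were the other large falls, and NSMCE1-DT missed the threshold without DIS3-AID replicate 3 (adjusted p = 0.0648 in edgeR). Of the 18 falls 4 also fell with auxin in control cells, and 8 fell more in DIS3-AID than in control cells by the test of the difference.

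**Figure D3:**
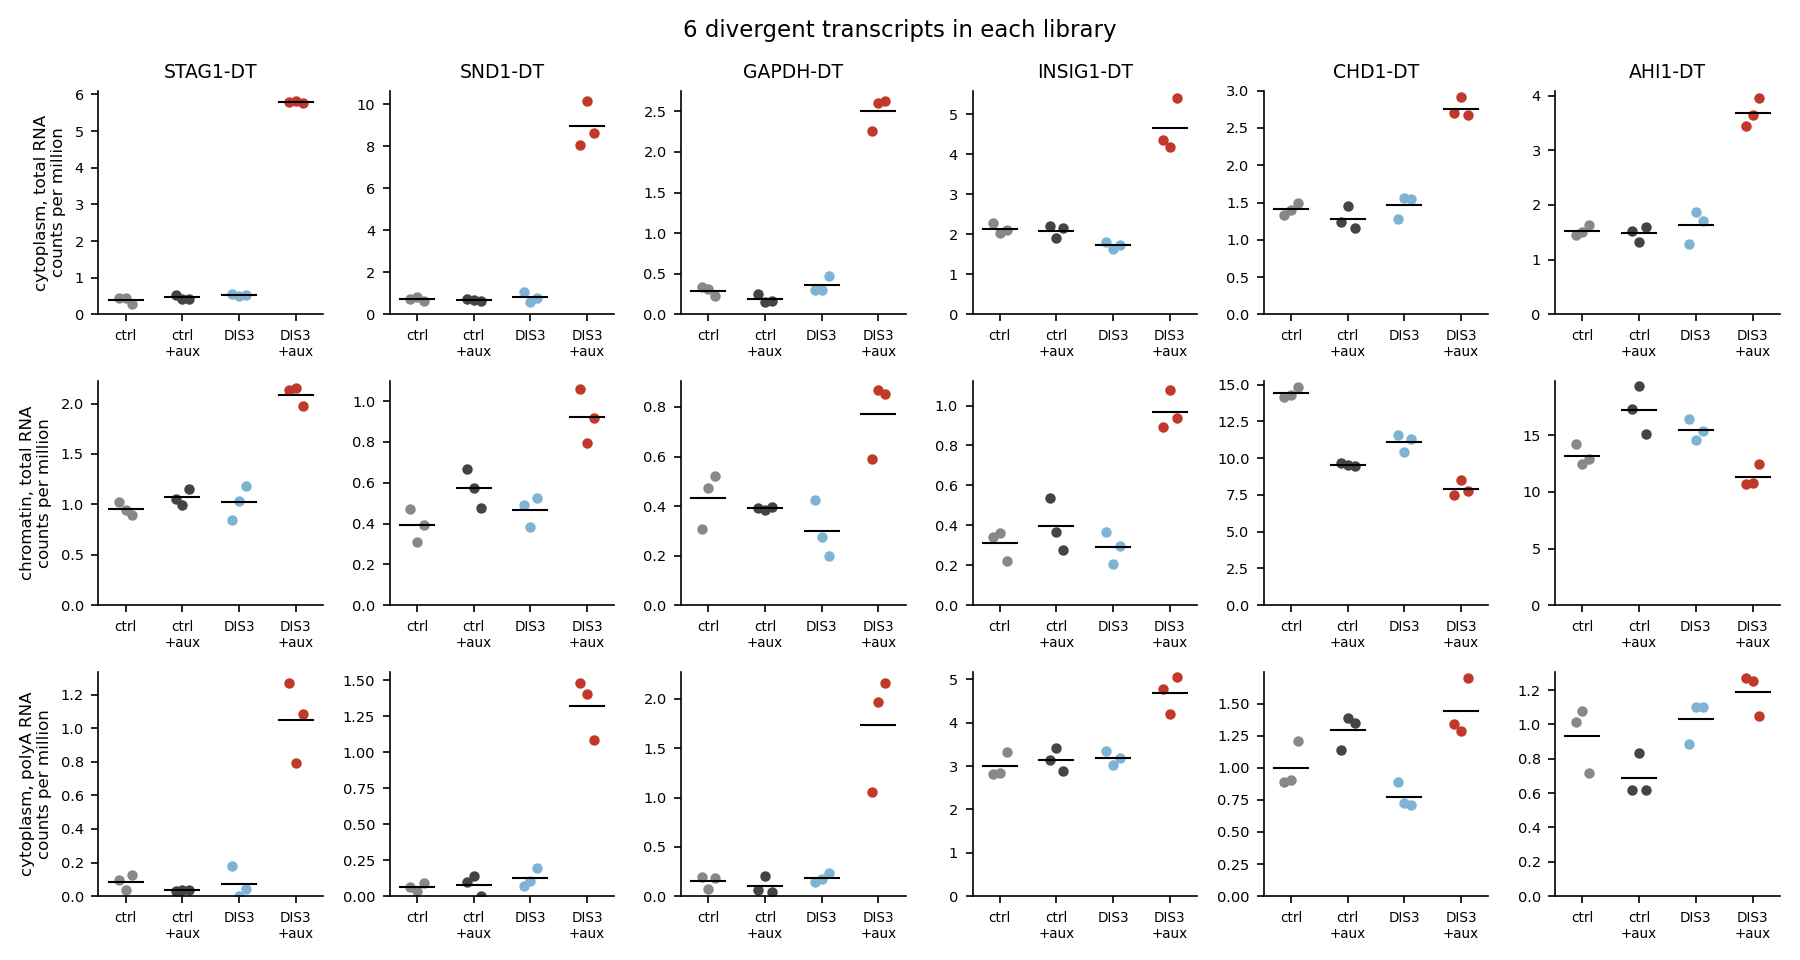
CPM of 6 divergent transcripts (columns) in each library of the 3 data sets (rows); points are libraries, lines are means of 3, and each axis starts at 0. STAG1-DT, SND1-DT, GAPDH-DT and INSIG1-DT are highest in the auxin-treated DIS3-AID libraries of every row, while CHD1-DT and AHI1-DT are so in cytoplasmic total RNA; on chromatin the same libraries are the lowest for CHD1-DT and meet the control range at 12.4 to 12.5 CPM for AHI1-DT.

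The members that fell on chromatin were higher in the cytoplasm, as most members were. All 18 had a positive cytoplasmic change (median log2 change 1.03), as had 286 of all 300 members (median 1.28). Of the 18, 17 were among the 255 called higher there, who make up 85% of all members. CHD1-DT had 1.28, 1.56 and 1.55 CPM before and 2.7, 2.91 and 2.67 CPM after auxin in the cytoplasm, and AHI1-DT had 1.29, 1.88 and 1.71 before and 3.44, 3.64 and 3.96 after. Of the 116 members that rose on chromatin, 113 (97.4%) were also called in the cytoplasm, where 85% of all members were, and these 113 are 44.3% of those called there. The cytoplasmic change exceeded the chromatin change in 254 of 286 members. In a joint fit of both fractions the chromatin change minus the cytoplasmic change was lower for 171 members and higher for 10, beside 11% and 22.1% of features. All features had a median of 0.16 in that fit and the members -0.78. With library sizes alone these were -0.17 and -1.11, the members' counts 215 lower and 2 higher, and the split of all features turned from 6051 higher and 3029 lower to 379 and 5520. ERRFI1-DT, beside the gene of an EGFR inhibitor, showed a wide gap: 5.97, 6.64 and 5.90 CPM before and 58.4, 55.0 and 53.6 CPM after auxin in the cytoplasm, against 47.9, 55.5 and 53.8 and then 63.0, 58.8 and 60.2 CPM on chromatin. INSIG1-DT and MAN1B1-DT changed about as much in both (1.71 and 1.43, and 1.45 and 1.47 on the log2 scale), with the difference not past the threshold (0.46 ± 0.27 SE, adjusted p = 0.1995, and 0.17 ± 0.19, adjusted p = 0.519, in edgeR), which does not show that they were equal. Since the cytoplasm libraries chose the members, this comparison is also a description.

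The chromatin response varied with where a member resided before treatment. Among the 100 members with the lowest chromatin over cytoplasm ratio in untreated control cells, 41 of 86 tested rose on chromatin and 0 fell, with a median log2 change of 0.61. Among the middle 100, 46 rose and 3 fell (median 0.35), and among the 100 with the highest ratio, 29 rose and 15 fell (median 0.08). Across 286 members the chromatin change had r = -0.50 (Spearman's rho -0.51) with that ratio, while the cytoplasmic change had r = -0.02 (n = 300). Its median was nonetheless highest in the middle 100: 1.31, 1.89 and 1.05 from the lowest to the highest ratio. In the same order 79, 85 and 91 of 100 were called higher in the cytoplasm, beside 21.1% of all features. The ratio came from control libraries and the change from DIS3-AID libraries, but chromatin-poor members have fewer reads there and noisier changes. Of single-exon members 31 of 52 tested rose on chromatin and 0 fell, and of spliced ones 85 of 234 rose and 18 fell. With a polyadenylation signal at the annotated end 71 of 182 tested rose on chromatin and 10 fell, and without it 45 of 104 rose and 8 fell. Of all features 11% rose and 9.54% fell on chromatin. All features were not split by ratio, exon number or signal, so whether these patterns are particular to the members was not tested.

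**Figure D4:**
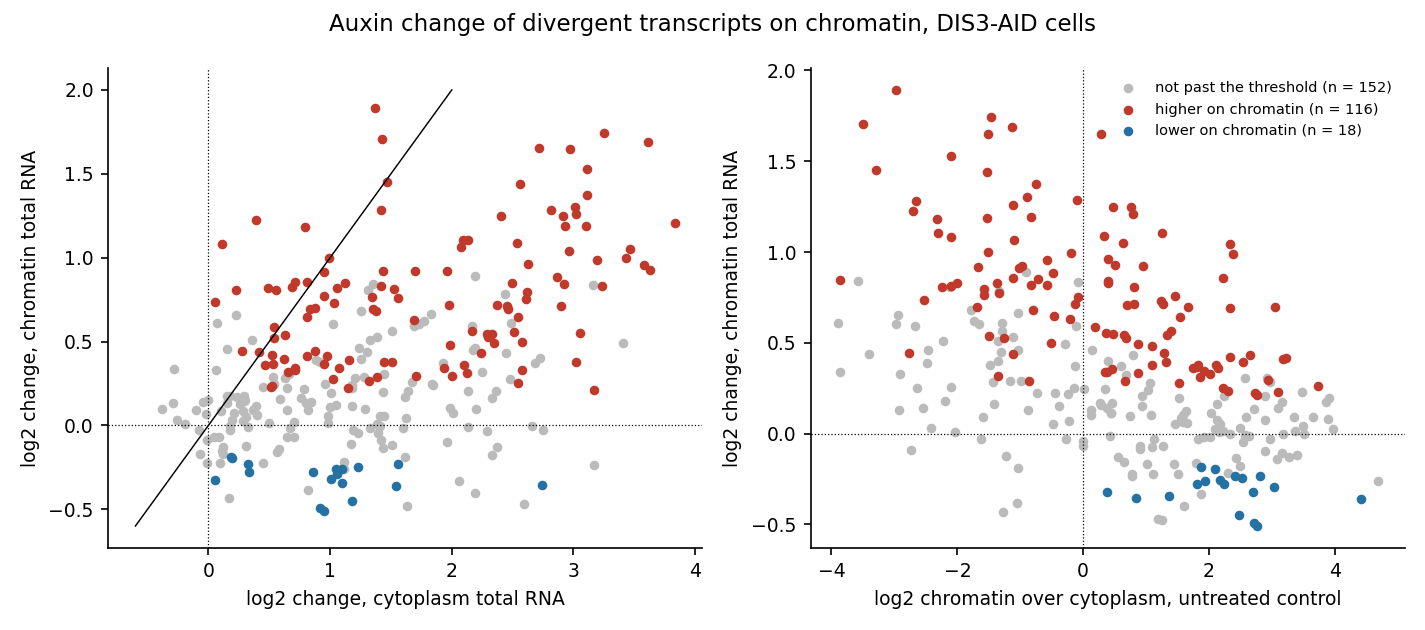
Log2 change on chromatin after auxin in DIS3-AID cells against the log2 change in the cytoplasm (left, the line marks equal changes) and against the log2 chromatin over cytoplasm ratio in untreated control cells (right), for 286 divergent transcripts. The 18 that fell on chromatin (blue) all lie to the right of 0 in both panels.

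With auxin in control cells, members were called on chromatin only a little more often than all features. In edgeR 30 of 286 rose (10.5%) and 31 fell (10.8%), beside 9.02% and 7.97% of all features and 10.6% and 10.3% of protein-coding genes. Of the 30, 13 were among the 116 rises in DIS3-AID cells. The total of 61 was 35 without control replicate 3, 40 without auxin-treated control replicate 1 and 38 without auxin-treated control replicate 2, and which direction was in the majority turned with library sizes alone (32 and 29). AKAP1-DT went from 0.547, 0.255 and 0.394 to 1.13, 0.956 and 0.717 CPM (log2 change 1.18 ± 0.24, adjusted p = 0.00226 in edgeR), and MTUS1-DT (0.83), PPP1R13B-DT (0.83) and MICOS10-DT (1.12) were the other large rises on the log2 scale. HSPA5-DT, beside the gene of the chaperone BiP, fell from 0.649, 0.546 and 0.743 to 0.348, 0.328 and 0.358 CPM in control cells and rose from 0.390, 0.482 and 0.428 to 1.06, 1.06 and 0.833 CPM in DIS3-AID cells, and the difference of the 2 auxin effects was 2.14 (log2, adjusted p = 3.47e-05 in edgeR). NFE2L1-DT (-0.55), CSTF3-DT (-0.55) and CHD1-DT (-0.59) fell in control cells as well. MICOS10-DT, PPP1R13B-DT and NFE2L1-DT lost their call without control replicate 3 (adjusted p = 0.0798, 0.0515 and 0.0513 in edgeR), MICOS10-DT also without auxin-treated control replicate 2 (0.0824), and NFE2L1-DT without control replicate 1 (0.136) or auxin-treated control replicate 1 or 2 (0.0719 and 0.135). Tested against this background, the auxin change was higher in DIS3-AID cells for 88 members and lower for 16, beside 8.54% and 9.2% of features, and 68 of the 116 rises were among the 88.

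Between the untreated lines 57 members were higher and 35 lower on DIS3-AID chromatin, beside 15.2% and 17.4% of features. PPP1R13B-DT (log2 difference 1.14), MICOS10-DT (1.09), REL-DT (0.93) and CSE1L-DT (0.88) were the furthest higher, and ZFAND3-DT (-0.76), MMADHC-DT (-0.73), FBXO38-DT (-0.62) and HSPA5-DT (-0.62) the furthest lower. HSPA5-DT lost this call without control replicate 3 or DIS3-AID replicate 1 (adjusted p = 0.0932 and 0.0564 in edgeR).

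PolyA-enriched cytoplasmic RNA, a second data set that the choice did not use, gave rises and no falls. Of 269 members tested 127 rose and 0 fell in DIS3-AID cells after auxin in edgeR, beside 13.2% and 3.88% of features; 1 was lower at an unadjusted p under 0.05, and DESeq2 gave 101 and 0. The median log2 change was 0.62, against -0.01 for all features, and 72 of the rises were at least 2-fold. Of the members 16 reached the level needed for the test in no library outside the treated DIS3-AID group, so they had to differ to be tested, and 15 of them are among the 127. Without the filter, 121 of all 300 rose. The members' summed share of counts was 0.0763% ± 0.000678 before and 0.107% ± 0.00143 after auxin (exact permutation test, two-sided, p = 0.1, the smallest possible), and 0.0772% ± 0.000357 and 0.0788% ± 0.00123 in control cells.

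Of the 8 largest rises, PTPN23-DT had the most reads, 26 before and 216 after auxin. It went from 0.320, 0.207 and 0.432 to 2.79, 2.50 and 2.56 CPM (log2 change 3.04 ± 0.29 SE, adjusted p = 2.55e-09 in edgeR), and its control libraries lay between 0.243 and 0.556 CPM. Of the other 7, 6 are among the 16, and H2AZ2-DT, beside a histone variant gene, reached the level in only 2 libraries outside the treated DIS3-AID group, so the values of these 7 are given with no test. STAG1-DT, a single-exon RNA at chr3:136752630-136755780, had 0.178, 0 and 0.0393 CPM before and 1.27, 0.796 and 1.08 CPM after auxin, and its control libraries lay at 0.124 CPM or below. These are 6 reads against 87, a ratio of 15.0 with a 95% interval of 6.64 to 42.1 that covers counting error only. Its fitted log2 change of 3.78 became 5.52 without DIS3-AID replicate 1 and 3.18 without DIS3-AID replicate 2. SND1-DT, beside a gene for an RNA-binding nuclease, went from 0.0711, 0.103 and 0.196 to 1.48, 1.40 and 1.08 CPM, and GAPDH-DT, beside the glycolytic gene, from 0.142, 0.172 and 0.236 to 1.06, 1.97 and 2.17 CPM. In PTPN23-DT, STAG1-DT, SND1-DT and GAPDH-DT the treated DIS3-AID libraries lay above the other 9. IDH3B-DT had 3 reads before and 42 after (ratio 14.5, interval 4.64 to 73.3), THOC1-DT 3 and 40 (13.8, 4.41 to 69.9), and H2AZ2-DT and ADM-DT each 6 and 52. The fitted log2 change of THOC1-DT, 3.59, became 4.48 without DIS3-AID replicate 3 and 3.01 without DIS3-AID replicate 2.

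In control cells 0 of 269 members passed with auxin in the polyA set in edgeR, and 0 in DESeq2, where 0.048% of features did; 12 had an unadjusted p under 0.05. The auxin change was higher in DIS3-AID than in control cells for 44 members and lower for 0 in edgeR (0 lower at an unadjusted p under 0.05, and 37 and 0 in DESeq2), beside 4.85% and 0.985% of features, and 43 of the 127 rises were among the 44. The 44 include STAG1-DT, GAPDH-DT and THOC1-DT, which are among the 16 members that had to differ to be tested. For PTPN23-DT the difference was 3.44 ± 0.48 (SE, adjusted p = 1.67e-05 in edgeR). Between the untreated lines 4 members were higher and 5 lower, beside 6.22% and 5.65%. GAS6-DT was the clearest, with 3.32, 3.09 and 3.20 CPM in control and 7.32, 8.95 and 6.44 CPM in DIS3-AID cells (log2 difference 1.24 ± 0.13, adjusted p = 1.03e-07 in edgeR). PPP1R3B-DT (0.92), ERRFI1-DT (0.75) and COX10-DT (0.38) were also higher and CDK13-DT (-1.33), OSER1-DT (-0.52), GOLPH3-DT (-0.52) and C16orf95-DT (-0.49) lower on the log2 scale. Apart from GAS6-DT and PPP1R3B-DT each of these 8 lost its call without at least 1 library, and the total of 9 was 4 without DIS3-AID replicate 1, control replicate 2 or control replicate 3.

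Changes in the 2 cytoplasmic data sets were correlated, with smaller ones in polyA RNA (median 0.62, against 1.28 in total RNA). All 127 polyA rises were among the 255 called in total RNA (49.8% of those), where 85% of all members were called. The changes had r = 0.79 across 269 members. Both data sets come from the same fraction and groups, so they are not separate experiments. The polyA change was lower than the total RNA change for 52 members and higher for 0 in a joint fit in edgeR, beside 3% and 5.29% of features (median of all features 0.16, of the members -0.32). With library sizes alone the median of all features was 0.00, and 70 members were lower and 0 higher. The 52 became 83, 82 and 83 without DIS3-AID polyA replicate 3 or auxin-treated DIS3-AID polyA replicate 1 or 2, and 88 with no filter. With the replicate number as a block it was 69 lower and 2 higher. The joint fit took polyA and total RNA libraries as independent, though same-numbered ones deviated together, and the block does not pair them within a group. ERRFI1-DT rose from 1.46, 1.96 and 2.28 to 9.61, 9.67 and 9.10 CPM in the polyA set (2.32 on the log2 scale, against 3.17 in total RNA).

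Of 260 members tested in all 3 data sets 69 (26.5%) were higher in all 3, where 5.19% of the 14341 features tested in all 3 were, and 15% were higher in none, where 76% of features were. One of these data sets chose the members, so this too is a description. The members higher in all 3 include CEP192-DT, IDH3B-DT and SLC25A28-DT, which had to differ to be tested in the polyA set. Other non-coding classes are given beside them. Of antisense genes (-AS symbols) 535 of 837 tested were higher in the cytoplasm, 201 of 856 on chromatin and 158 of 629 in the polyA set, and 2, 44 and 1 were lower. LINC genes had 219 of 458, 88 of 593 and 58 of 263 higher and 6, 45 and 1 lower. Their median log2 changes on chromatin were 0.14 and 0.03, where the members had 0.30. Of the 278 -DT genes outside the ranking 141 were tested in the cytoplasm and 108 were higher, and on chromatin 18 of 104 were higher and 3 lower.

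The coding partners were called about as often as other coding genes. In the cytoplasm 15 of 297 tested rose and 70 fell (median log2 change -0.11), and none by 2-fold. That is 5.05% and 23.6%, beside 7.25% and 20% of the 14396 protein-coding genes tested, whose median was -0.10. With library sizes alone the split was 22 and 19, and the total of 85 became 54 without DIS3-AID replicate 1 or auxin-treated DIS3-AID replicate 3. On chromatin 26 of 296 rose and 33 fell (median 0.00), beside 6.41% and 13.4% of protein-coding genes (median -0.03), with library sizes alone 15 and 52, with 37 and 27 without DIS3-AID replicate 1, 23 and 22 without auxin-treated DIS3-AID replicate 1 and 15 and 22 without auxin-treated DIS3-AID replicate 2. In the polyA set 5 of 246 rose and 18 fell, beside 1.67% and 6.1% of protein-coding genes, and with library sizes alone 7 and 6; the total of 23 was 12 without DIS3-AID replicate 3 or auxin-treated DIS3-AID replicate 1. The changes of both genes of a pair had little linear relation: r was 0.01 over 297 pairs in the cytoplasm and 0.11 over 282 pairs on chromatin. Of the partners of the 116 members that rose on chromatin, 16 rose and 7 fell there. Rises thus outnumbered falls among them, while among all 296 tested partners falls outnumbered rises (26 and 33). In the cytoplasm 12 rose and 58 fell among the partners of the 255 members called higher, beside 15 and 70 of all 297. These differences were not tested. The members' medians rose to 1.78 RPKM in treated DIS3-AID cytoplasm against 8.72 for the partners, and 44 members then stood above their partner, where 20 had done so before auxin.

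Single pairs varied. STAG1 rose along with STAG1-DT: it had 684, 691 and 686 CPM on chromatin before and 791, 806 and 786 after auxin (log2 change 0.21 ± 0.05 SE, adjusted p = 0.00267 in edgeR), where STAG1-DT had 0.846, 1.03 and 1.19 and then 2.13, 2.16 and 1.98 CPM. INSIG1 fell in the cytoplasm from 46.0, 46.9 and 41.3 to 33.0, 27.6 and 32.8 CPM (-0.52 ± 0.07, adjusted p = 4.53e-06 in edgeR), while INSIG1-DT was at 1.82, 1.65 and 1.74 and then at 4.36, 4.19 and 5.41 CPM. CHD1 on chromatin had 215, 174 and 192 and then 170, 190 and 202 CPM and did not pass (adjusted p = 0.742 in edgeR). ERICH2 fell on chromatin with its neighbour (-0.91, adjusted p = 0.0328 in edgeR), a call lost without a filter, under DESeq2 (adjusted p = 0.102) and when any 1 of 5 of the 6 libraries was left out. RBM12B (0.44), MTUS1 (0.41), PRDM16 (0.39) and MED28 (0.35) were the largest partner rises on chromatin and SMIM14 (-0.71), GPR176 (-0.50) and PRKACB (-0.38) further falls, PRKACB missing the threshold without DIS3-AID replicate 1 or auxin-treated DIS3-AID replicate 1 (adjusted p = 0.0577 and 0.0644 in edgeR). In the cytoplasm ZNF594 (0.96), RNF32 (0.91), AGA (0.77) and WDR5B (0.70) rose most, and PRR15 (-0.71), DUSP5 (-0.49) and ZC3H12A (-0.49) fell most beside INSIG1; PRR15 missed the threshold without DIS3-AID replicate 1 or auxin-treated DIS3-AID replicate 2 (adjusted p = 0.0667 and 0.0675 in edgeR).

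**Figure D5:**
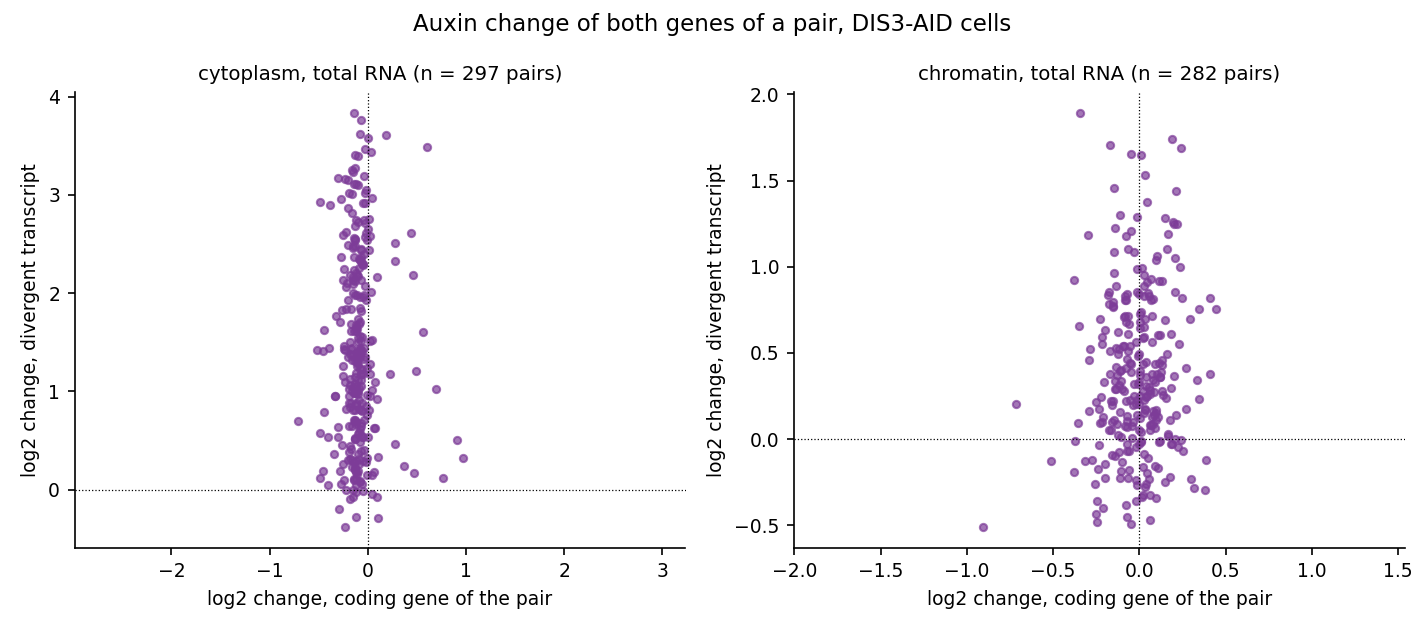
Log2 change after auxin in DIS3-AID cells of each divergent transcript (vertical) against its coding partner (horizontal), in the cytoplasm (297 pairs) and on chromatin (282 pairs); each point is a pair. The divergent transcripts spread from -0.38 to 3.84 in the cytoplasm, whereas no partner called there reached a 2-fold change.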

How the data were processed

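The deposited files are tables of whole-number read counts per feature, 1 per library; the submitters' processing notes name hg38, featureCounts 2.0.0, STAR 2.7.3a and Cufflinks 2.2.1 without parameters, and the counts are not normalized. Ensembl IDs were matched without version to a table of current symbols (57392 of 59607 features) and to GENCODE 29 (all 300 members). The members and lists were chosen with earlier results of these data known. Separately for each data set, low features were removed (filterByExpr, min.count 10), TMM factors were computed, and edgeR 4.0.16 (limma 3.58.1, R 4.3.3) was fitted with robust quasi-likelihood F tests over all 4 groups, Benjamini-Hochberg adjustment over all features and a threshold of adjusted p of 0.05; the scripts were tested on simulated data. Tested features numbered 23027 (cytoplasm), 24966 (chromatin) and 16651 (polyA), 27418 and 18669 in the joint fits, and the biological coefficient of variation was 6.07% to 6.59% in the first 3. CPM values use the TMM-scaled library sizes, and RPKM divides them by GENCODE exon length. DESeq2 1.42.0 was an alternative, beside library sizes alone, no filter, the replicate number as a block, leaving out each library, other member lists and, chosen after seeing the data, members with no exon overlap on either strand. Replicates of a group differed by more than counting error (chi-square per degree of freedom 2.62 to 40.9), so none was a duplicate. Same-numbered polyA and total RNA cytoplasm libraries deviated together (r of 0.14 to 0.318 in 6 pairs); within a data set r ran from -0.313 to 0.276. Members named are the largest changes past the threshold in each data set (10 rises and 5 falls on chromatin without overlap of libraries, 8 in polyA, where no member fell, 10 and 5 in the cytoplasm, 4 and 4 in the other comparisons), the 10 highest per kilobase (1 of them is not reported here), ranks 298 to 303 and partners; examples from the lists of nuclear RNAs and decay factors were picked after their values were seen.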

Additional observations from a re-analysis of the deposited data

Results flagged for a closer look

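Some auxin effects differed between the DIS3-AID and the control line by the test of the difference itself (edgeR interaction term, adjusted over all features). On chromatin 88 members (30.8% of those tested) had a higher and 16 (5.59%) a lower auxin change in DIS3-AID cells. Of all features 8.54% and 9.2% did, so lower changes were no more frequent among the members. In the polyA set it was 44 (16.4%) and 0, beside 4.85% and 0.985% of all features. Among the members named, the log2 difference on chromatin was 1.95 for CEP192-DT, 1.53 for SLC25A28-DT, 1.47 for PRDM10-DT, 1.36 for MAN1B1-DT, 1.26 for INSIG1-DT and 1.14 for CZIB-DT, and it was -0.45 for ERICH2-DT, -0.84 for AHI1-DT and -0.65 for NSMCE1-DT. In the polyA set it was 3.44 for PTPN23-DT. STAG1-DT (4.98), GAPDH-DT (3.72) and THOC1-DT (3.35) are also among the 44, but their values are given with no test. These 3 reached the level needed for the test only in the treated DIS3-AID libraries, so they had to differ to be tested. They had 6, 15 and 3 reads before auxin, so their differences are also not precise. Of the partner genes, RBM12B (0.56), MED28 (0.31), PRDM16 (0.23) and SMIM14 (-1.46) differed on chromatin.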

How the results depend on the processing

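Of 18 counts of calls, 11 stayed within 1.5 times and kept their majority direction under every alternative except the smaller list of 185 members with no exon overlap on either strand. That list gave fewer calls by construction: 158 in the cytoplasm after auxin in DIS3-AID cells, 83 in the polyA set, 61 for the chromatin difference between lines in auxin change, 146 for the same in the cytoplasm, 53 and 27 between the untreated lines on chromatin and in the cytoplasm, 119 and 31 for the joint fits of chromatin and of polyA against cytoplasm, 168 for chromatin against cytoplasm, and 34 for auxin in control chromatin (19 up and 15 down). For the last, whose main count was 61 (30 up and 31 down), the majority direction also turned with library sizes alone (61), with all -DT symbols (70), and when single libraries were left out, with a range of 35 to 58. Auxin in control cytoplasm had 0 calls and 1 under DESeq2, with no filter and with the replicate block. The polyA line difference had 7 calls under DESeq2 and 4 to 7 with a library left out. The polyA against cytoplasm fit gave 88 without filter and 41 to 83 with a library left out. Partner genes had 41 calls in the cytoplasm and 13 in the polyA set with library sizes alone, and 54 to 85, 37 to 64 and 12 to 26 in cytoplasm, chromatin and polyA set with a library left out; the causes were not tested. The replicate block changed no other count by over 1.5 times (127 on chromatin and 128 in the polyA set for auxin in DIS3-AID cells). Of the named members' results, 14 of 15 on chromatin and 8 of 8 in the polyA set for auxin in DIS3-AID cells kept call and direction throughout, and 2 of 8 for the polyA line difference did. Apart from PTPN23-DT, the members named for auxin in the polyA set reached the level needed for the test only or almost only in treated DIS3-AID libraries. Their calls there are read as no evidence. In the polyA set members with 3 to 6 reads before auxin have wide ratios, and with a library left out the log2 change ran from 3.18 to 5.52 for STAG1-DT and from 3.01 to 4.48 for THOC1-DT.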
